A study of Mus musculus with 4 samples.

Results

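The 9 genes described here encode the ligand Nodal and the proteins that process it, carry it to its receptors, block it or report its activity: Nodal, Furin, Tdgf1, Lefty1, Lefty2, Cer1, Foxh1, Smad7 and Skil. They were taken by gene symbol from a table of 24347 gene rows, and each symbol matched 1 row. The table holds RNA-seq levels in FPKM, a fragment count corrected for transcript length and for the depth of the sample, of embryoid bodies (EBs), the aggregates that mouse embryonic stem cells (mESCs) form in suspension. WT EBs were compared with EBs from mESCs in which the promoter of Gm11549, the gene of the micropeptide NEMEP, had been deleted by CRISPR/Cas9 in clones grown from single sorted cells (promoter KO). Both genotypes were strain 129/Ola, were grown as EBs in serum medium from which LIF had been withdrawn, received no other treatment and were collected on day 3. There were 2 samples of each genotype, and where a pair of values is given for a genotype, replicate 1 comes first and replicate 2 follows. The study calls the 2 samples of a genotype independent, and the labels do not say whether the promoter KO samples came from the same clone or from separate clones, so the p-values measure only the spread between these samples. The question was how the ligand compares with its antagonists, its feedback genes and its targets in the 2 genotypes.

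Nodal is a secreted ligand of the TGF-β family that patterns the early embryo and induces mesendoderm, the common precursor of mesoderm and endoderm. Its precursor is cut by convertases such as Furin, and the mature ligand signals through activin receptors together with an EGF-CFC coreceptor, Cripto (gene Tdgf1) or Cryptic (gene Cfc1). The receptors phosphorylate SMAD2 and SMAD3, which enter the nucleus with SMAD4 and bind DNA with partners such as FOXH1. The pathway induces its own ligand and its own inhibitors, among them Lefty1, Lefty2 and Cer1 outside the cell and Smad7 inside it.

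Gm11549, the targeted gene, was measured at 0.750 and 0.522 FPKM in WT 1 and WT 2, was listed at 0 in promoter KO 1 and stood at 0.0659 FPKM in promoter KO 2. The promoter KO values were thus the lowest, in the direction of the labels. These levels stood below the 1 FPKM in at least 2 samples that a gene needed to be tested. The samples were labelled as mesendoderm cells derived from mESCs, and the primitive streak genes were present in WT EBs. The T-box factor T was at 306 and 448 FPKM, Eomes at 166 and 168 FPKM, and Mixl1 at 63.0 and 76.3 FPKM in WT 1 and WT 2. General pluripotency genes were also abundant there, with Pou5f1 at 1499 and 1188 FPKM. From the smallest values of genes with a single transcript, the approximate depth was estimated as 24800000 fragments for WT 1, 22000000 for WT 2, 21600000 for promoter KO 1 and 20200000 for promoter KO 2. At that depth, the Gm11549 values rested on about 48.9 and 30.2 fragments in WT EBs and on 0 and 3.5 fragments in promoter KO EBs.

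The 9 genes did not move as a block. In promoter KO EBs, Nodal and the inhibitory Smad7 were higher, Tdgf1 and Cer1 were lower, and the other 5 did not pass the test. All 9 were tested among 11941 genes with limma on log2(FPKM + 1), with p-values adjusted over all of these genes. With a threshold of 0.05 on the adjusted p, 2 of the 9 fell, against 226 genes or 1.89% of all tested, and 2 rose, against 201 genes or 1.68%. In either direction 4 of the 9 passed, against 427 genes or 3.58%. The median log2 fold change of the 9 was 0.16, and that of all tested genes was 0.0042. The genotypes did not overlap for 8 of the 9 genes, Lefty2 being the exception, but 65.3% of all tested genes did not overlap either. By a fold change above 2 or below 0.5 with an unadjusted p under 0.05, Cer1 was the single gene of the 9 to pass, as a lower gene. This rule took 1.63% of all tested genes as lower and 1.4% as higher. The calls depended on single samples. None of the 9 was called by limma without WT 2 or without promoter KO 1, when no gene in the table was called, and Cer1 alone was called without WT 1. With no filter on low values limma called none of the 9, and without the intensity trend it called Cer1 alone. At an unadjusted p under 0.05, limma took 2 lower and 3 higher of the 9 without WT 2, against 7.86% and 7.68% of all genes tested there, and 4 lower and 2 higher without promoter KO 1, against 9.02% and 7.57%.

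**Figure D1:**
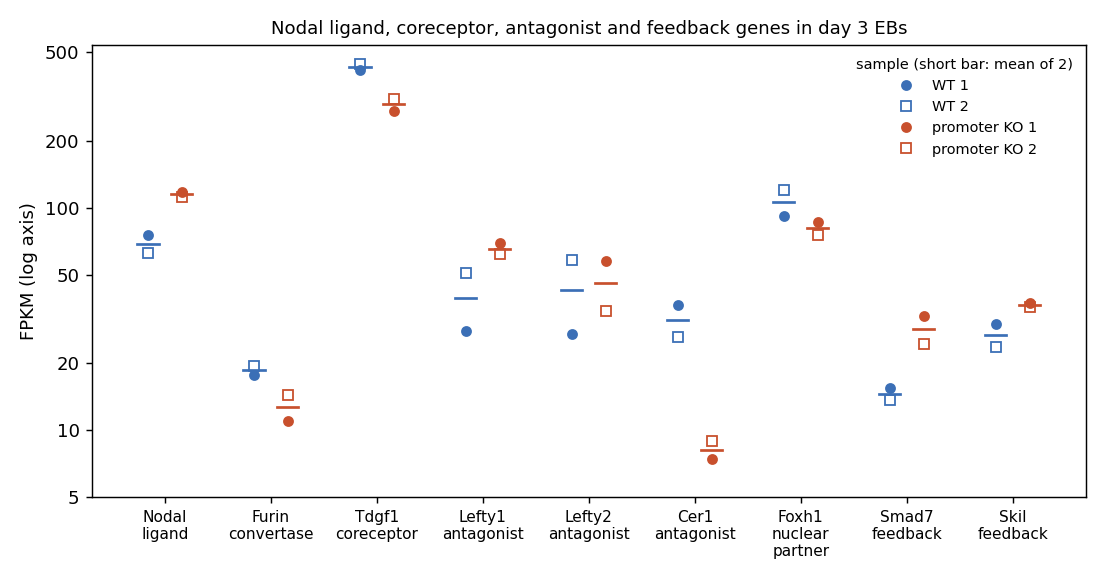
FPKM on a log axis of the 9 genes in each of the 4 samples, with WT in blue, promoter KO in orange, replicate 1 as filled circles, replicate 2 as open squares and short bars for the mean of 2 samples. The promoter KO samples lie above the WT samples for Nodal, Lefty1, Smad7 and Skil, below them for Furin, Tdgf1, Cer1 and Foxh1, and among them for Lefty2.

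The ligand itself was higher in promoter KO EBs. Nodal (chr10:61417972-61425338, plus strand, GRCm38) was at 75.1 and 62.3 FPKM in WT EBs, and at 117 and 112 FPKM in promoter KO EBs. Both promoter KO samples exceeded both WT samples, and the gap between the genotypes was wider than the gap within either. The mean rose from 68.7 ± 9.07 to 115 ± 3.71 FPKM (SD, n = 2), a fold of 1.67. On the log2(FPKM + 1) scale the fold change was 0.74 (limma, SE 0.11, 95% interval 0.47 to 1.00, adjusted p = 0.0389). In bulk RNA, a change in the number of cells that express a gene and a change in its RNA per cell cannot be told apart, which holds for each gene described here.

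Furin (chr7:80388585-80405436, minus strand) encodes a convertase that cuts the Nodal precursor. Its level was 17.8 and 19.4 FPKM in WT EBs, against 11.0 and 14.3 FPKM in promoter KO EBs. Both promoter KO values were lower, but the log2 fold change of -0.53 did not pass the test (limma, 95% interval -0.90 to -0.17, adjusted p = 0.0851) and was -0.35 without promoter KO 1. The annotation places the exons of another gene, Gm44851, across Furin on the opposite strand, and 200 bases of a Furin transcript are 95% identical to Ipo7, so some fragments may have been shared.

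The coreceptor Tdgf1 (chr9:110939603-110946158, minus strand) moved opposite to the ligand. Tdgf1 was at 415 and 442 FPKM in WT EBs, and at 273 and 310 FPKM in promoter KO EBs. The highest promoter KO sample was below the lowest WT sample. The mean fell from 428 ± 18.9 to 292 ± 26.0 FPKM (SD, n = 2), with a log2 fold change of -0.55 (limma, SE 0.09, 95% interval -0.77 to -0.34, adjusted p = 0.0422). A pseudogene copy, Tdgf1-ps1, is 98.8% identical to Tdgf1 over 512 bases, so fragments from that stretch may have been shared.

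Promoter windows, from 250 bases before to 50 bases after the start site, were taken from RefSeq (GRCm38.p6) for 4 of the 9 genes: Nodal, Tdgf1, Cer1 and Furin. Of these 4, the 3 that passed the test are printed here 5′ to 3′ on the strand of the gene. Nodal was higher while Tdgf1 and Cer1 were lower. No window is shown for Smad7, which also passed. The windows are chr10:61417722-61418021 (plus strand) for Nodal, chr9:110946109-110946408 (minus strand) for Tdgf1 and chr4:82885102-82885401 (minus strand) for Cer1. Capitals mark matches, on either strand, to AATNNACA (a FOXH1 motif), GTCTAGAC and CAGAC (SMAD3 and SMAD4 motifs) or GGCGC (a GC-rich SMAD motif), and no matches overlap in these windows.
Nodal: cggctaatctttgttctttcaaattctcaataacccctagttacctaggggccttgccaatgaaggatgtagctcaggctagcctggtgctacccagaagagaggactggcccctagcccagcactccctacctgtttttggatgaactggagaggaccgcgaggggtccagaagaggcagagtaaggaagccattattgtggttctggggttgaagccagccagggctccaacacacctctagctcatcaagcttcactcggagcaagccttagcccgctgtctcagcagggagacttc
Tdgf1: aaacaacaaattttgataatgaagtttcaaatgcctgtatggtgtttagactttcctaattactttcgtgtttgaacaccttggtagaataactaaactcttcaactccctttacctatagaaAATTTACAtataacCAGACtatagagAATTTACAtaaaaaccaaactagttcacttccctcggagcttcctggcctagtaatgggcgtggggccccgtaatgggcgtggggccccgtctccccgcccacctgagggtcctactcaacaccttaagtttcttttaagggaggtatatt
Cer1: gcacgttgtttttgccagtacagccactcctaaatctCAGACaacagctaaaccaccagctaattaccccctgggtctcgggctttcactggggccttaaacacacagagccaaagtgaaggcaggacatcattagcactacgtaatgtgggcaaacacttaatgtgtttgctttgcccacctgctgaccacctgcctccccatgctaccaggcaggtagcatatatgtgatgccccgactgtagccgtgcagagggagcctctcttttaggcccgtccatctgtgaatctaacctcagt
The Tdgf1 window held AATNNACA at 127 and 101 bases before the start site, with a CAGAC between them at 113 bases. Over 32544 distinct promoter windows of this length, 12.1% held AATNNACA at least once, 1.42% at least 2 times, and 0.615% held it at least 2 times together with CAGAC. The combined pattern was not among the 4 planned motifs and copies what the Tdgf1 window held, so its rarity is not a test. The Cer1 window held a single CAGAC, 213 bases before the start site, a motif found in 49.5% of the windows. The Nodal window held none of the 4 motifs. GGCGC occurred in 37.1% of all windows and GTCTAGAC in 0.215%. These matches describe the letters of the windows and do not show binding.

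Among the antagonists, Cer1 fell, whereas neither Lefty gene passed the test. Cer1 (chr4:82881751-82885148, minus strand) encodes a secreted protein that binds Nodal and BMP ligands. It was measured at 36.6 and 26.1 FPKM in WT EBs, and at 7.42 and 8.93 FPKM in promoter KO EBs. The promoter KO samples were close to each other and far below both WT samples. The mean fell from 31.4 ± 7.39 to 8.17 ± 1.07 FPKM (SD, n = 2), to 0.261 of the WT level. Its log2 fold change of -1.80 was the largest of the 9 in size (limma, SE 0.18, 95% interval -2.25 to -1.36, adjusted p = 0.0233). The lowest Cer1 value rested on about 247 fragments, which gives a 95% counting interval of 6.53 to 8.42 FPKM and leaves out the variation between cultures.

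Lefty1 (chr1:180935022-180938400, plus strand) and Lefty2 (chr1:180893108-180899103, plus strand) encode secreted inhibitors that bind Nodal and its coreceptor, and are among the most direct readouts of the pathway. Lefty1 was at 27.8 and 51.1 FPKM in WT EBs, and at 69.1 and 62.0 FPKM in promoter KO EBs. Levels in promoter KO EBs were the higher ones, but the WT samples differed from each other by more than WT 2 differed from either promoter KO sample. The log2 fold change of 0.78 came with a wide interval (limma, 95% interval 0.13 to 1.42, adjusted p = 0.120), and it was 0.35 without WT 1 and 1.20 without WT 2. Lefty2 was at 27.0 and 58.3 FPKM in WT EBs, and at 57.6 and 34.2 FPKM in promoter KO EBs. The genotypes overlapped, with the lowest and the highest value both in WT. The log2 fold change was 0.16 (limma, 95% interval -0.79 to 1.11, adjusted p = 0.805), and it turned to -0.38 without WT 1 and to -0.21 without promoter KO 1. The transcripts of the 2 genes, 35.9 kilobases apart, are 97.6% identical over 451 bases. Their longest match spans 1157 bases at 91.4% identity. How fragments from such stretches were divided between the 2 genes is uncertain.

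Foxh1 (chr15:76668225-76669948, minus strand) encodes the forkhead factor that brings SMAD2 and SMAD3 to DNA. Its level was 91.8 and 121 FPKM in WT EBs, against 86.3 and 75.1 FPKM in promoter KO EBs. The genotypes did not overlap, by a small margin in the nearest pair. The log2 fold change of -0.38 did not pass the test (limma, 95% interval -0.74 to -0.02, adjusted p = 0.147), and it was -0.58 without WT 1 and -0.19 without WT 2.

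Of the 2 intracellular feedback genes among the 9, Smad7 was higher in promoter KO EBs and Skil did not pass the test. Smad7 encodes an inhibitory SMAD that is induced by TGF-β family ligands and blocks their receptors. It was at 15.5 and 13.6 FPKM in WT EBs, and at 32.5 and 24.5 FPKM in promoter KO EBs. The lower promoter KO sample exceeded both WT samples. The mean rose from 14.5 ± 1.31 to 28.5 ± 5.68 FPKM (SD, n = 2), a fold of 1.96, with a log2 fold change of 0.91 (limma, SE 0.16, 95% interval 0.53 to 1.30, adjusted p = 0.0460). This call stood nearest to the threshold of the 4, and it was made in 4 of 11 alternative limma fits, against 6 for Nodal, 6 for Tdgf1 and 8 for Cer1.

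Skil (chr3:31095058-31122577, plus strand) encodes SnoN, a corepressor that binds SMAD proteins and whose gene responds to the pathway. It was at 29.9 and 23.6 FPKM in WT EBs, and at 37.3 and 35.7 FPKM in promoter KO EBs. Both promoter KO values were higher, with a log2 fold change of 0.44 that did not pass the test (limma, 95% interval 0.13 to 0.76, adjusted p = 0.0923) and was 0.28 without WT 2. Skil lies on the chromosome of the targeted gene, 5.39 megabases from Gm11549 (chr3:36515057-36521813, minus strand).

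On the FPKM scale, which divides by transcript length, Tdgf1 had the highest level of the 9 in both genotypes and stood apart from the gene that followed it. In WT EBs the order of mean FPKM was Tdgf1, Foxh1, Nodal, Lefty2, Lefty1, Cer1, Skil, Furin and Smad7. Lefty2, Lefty1, Cer1 and Skil could not be ordered, because neighbours in this order overlapped across the 2 samples. In promoter KO EBs the order was Tdgf1, Nodal, Foxh1, Lefty1, Lefty2, Skil, Smad7, Furin and Cer1, and only Lefty2 and Skil overlapped as neighbours. Nodal thus stood below Foxh1 in WT and above it in promoter KO, and Cer1 was the lowest of the 9 in promoter KO.

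The level of each gene was then divided by that of Nodal in the same sample, to set the ligand against its coreceptor, inhibitors and feedback genes. Tdgf1 was 5.53 and 7.09 times the FPKM of Nodal in WT EBs and 2.33 and 2.76 times in promoter KO EBs. Cer1 was 0.487 and 0.420 times the FPKM of Nodal in WT EBs and 0.0632 and 0.0796 times in promoter KO EBs. Smad7 differed from these, at 0.206 and 0.219 times the FPKM of Nodal in WT EBs and 0.277 and 0.219 times in promoter KO EBs. The Smad7 ratios of the genotypes overlapped on the log2(FPKM + 1) scale. Expressed as a log2 difference between genotypes, the ratio to Nodal was lower in promoter KO by -2.54 for Cer1, -1.29 for Tdgf1, -1.27 for Furin, -1.12 for Foxh1 and -0.29 for Skil, without overlap between genotypes. Each of these 5 gave a two-sided exact permutation p of 0.33, the smallest that 2 against 2 samples allow. The other 3 overlapped, with log2 differences of 0.04 for Lefty1, -0.58 for Lefty2 and 0.18 for Smad7, and exact permutation p of 1, 0.667 and 0.667. These 3 values depended on single samples. The Lefty1 difference was -0.52 without WT 1, 0.60 without WT 2, -0.01 without promoter KO 1 and 0.08 without promoter KO 2, and that of Lefty2 was -1.26, 0.10, -0.91 and -0.25 in the same order. The Smad7 difference was 0.13, 0.22, 0.01 and 0.34. With 1 sample against 2 the exact permutation p cannot go below 0.33, a value met by Lefty1 without WT 1 and without WT 2, by Lefty2 without WT 1 and by Smad7 without promoter KO 2. A lower ratio to Nodal was the usual case, since Nodal itself rose. Of the other 11940 tested genes, 94.1% did not overlap in this ratio and 92.8% were lower without overlap, with a median difference of -0.73. The differences of Cer1, Tdgf1, Furin and Foxh1 lay below that median, and those of Skil, Lefty1, Lefty2 and Smad7 lay above it.

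**Figure D2:**
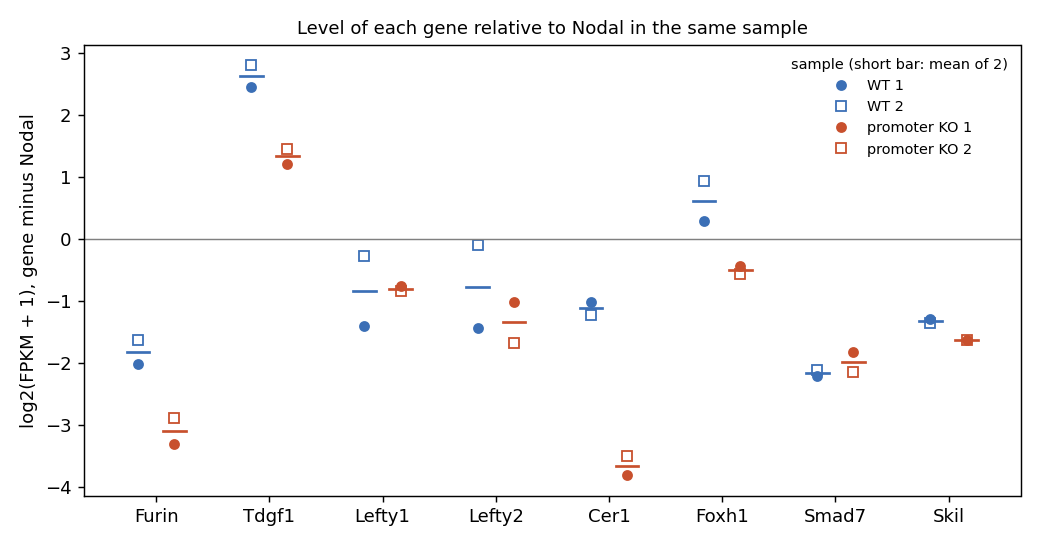
Level of each of the other 8 genes relative to Nodal in the same sample, as the difference of log2(FPKM + 1), with WT in blue, promoter KO in orange, replicate 1 as filled circles, replicate 2 as open squares and short bars for the mean of 2 samples. Cer1, Tdgf1, Furin, Foxh1 and Skil lie lower in both promoter KO samples than in both WT samples, while Lefty1, Lefty2 and Smad7 overlap.

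The remaining pathway was described with 47 further genes, of which 42 were tested, in lists chosen with earlier results of these data known. By limma, 9 fell and 0 rose at the adjusted threshold, against 1.89% and 1.68% of all tested genes. An unadjusted p under 0.05 took 22 as lower and 2 as higher, against 15.6% and 15% of all tested genes. The 2 higher ones were Gdf3 and Pcsk6, the latter named after its values were seen. The median log2 fold change of the 42 was -0.35, against 0.0042 for all tested genes. The 9 lower genes were 2 extracellular inhibitors and 7 mesendoderm factors. Without WT 2 or without promoter KO 1 the count of lower genes was 0, as it was for the whole table, with 19 and 17 lower and 1 higher in each fit at an unadjusted p under 0.05. It was 4 without WT 1, 1 without the intensity trend and 0 with no filter on low values.

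None of the 4 tested receptor genes and none of the 8 SMAD and partner genes was called by limma, and 4 of these 12 had an unadjusted p under 0.05, against 30.6% of all tested genes: Acvr2b, Cfc1, Smad3 and Drap1. The type I receptor Acvr1b was at 17.8 and 14.9 FPKM in WT EBs, and at 14.4 and 15.6 FPKM in promoter KO EBs, with overlap. The type II receptor genes Acvr2a and Acvr2b had log2 fold changes of -0.13 and -0.34 (limma, adjusted p = 0.589 and 0.147). The type I receptor gene Acvr1c stood at no more than 0.0159 FPKM in any sample and was not tested. Cfc1, the gene of the second coreceptor, was at 4.17 and 13.8 FPKM in WT EBs, and at 0.569 and 1.18 FPKM in promoter KO EBs. Both values in promoter KO EBs were below those in WT EBs, which themselves lay far apart, and the log2 fold change of -2.25 did not pass the test (limma, 95% interval -3.42 to -1.07, adjusted p = 0.0583).

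Among the signal transducers, Smad2 had a log2 fold change of 0.03, Smad3 of -0.69 and Smad4 of -0.23 (limma, adjusted p = 0.904, 0.0801 and 0.165). Smad3 was at 8.80 and 8.84 FPKM in WT EBs, and at 4.13 and 6.22 FPKM in promoter KO EBs. Drap1, whose product binds FOXH1 and limits Nodal signalling, was the most abundant gene of its list. It was at 186 and 206 FPKM in WT EBs, and at 148 and 145 FPKM in promoter KO EBs (limma, log2 fold change -0.41, adjusted p = 0.0541). The chromatin reader gene Trim33 and the corepressor genes Tgif1, Tgif2 and Ski had log2 fold changes of 0.22, 0.16, -0.18 and 0.16, none past the threshold.

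Of 5 tested genes for other ligands and convertases, 0 were called by limma in either direction, and Gdf3, Pcsk6 and Inha had an unadjusted p under 0.05, the last as a lower gene named after its values were seen. Inha reached 1 FPKM in WT alone, so it was tested only through the genotype in which it is high. Gdf3, a TGF-β family ligand, was at 4.93 and 7.44 FPKM in WT EBs, and at 28.1 and 13.6 FPKM in promoter KO EBs. The promoter KO samples were the higher ones but differed by more than the WT samples did, and the log2 fold change of 1.54 did not pass (limma, adjusted p = 0.0608). Gdf1, whose product pairs with Nodal, and the convertase gene Pcsk7 had log2 fold changes of 0.19 and 0.16. Of 12 tested feedback and extracellular inhibitor genes, 2 were lower by limma and 0 were higher, against 1.89% and 1.68% of all tested genes. At an unadjusted p under 0.05, 4 were lower and 0 higher, against 15.6% and 15%. The median log2 fold change of the 12 was -0.24. Fst, the gene of the activin-binding protein follistatin, was at 138 and 116 FPKM in WT EBs, and at 58.8 and 76.1 FPKM in promoter KO EBs (limma, log2 fold change -0.91, adjusted p = 0.0422). Its relative Fstl3 was at 3.73 and 3.59 FPKM in WT EBs, and at 1.59 and 1.80 FPKM in promoter KO EBs (limma, log2 fold change -0.79, adjusted p = 0.0482). Both inhibitor genes were lower in each promoter KO sample than in each WT sample, but 65.3% of all tested genes had no overlap between genotypes either. The other 2, Smad6 and Smurf2, were named after their values were seen. Smad6, which encodes the second inhibitory SMAD, was at 5.89 and 9.06 FPKM in WT EBs, and at 1.52 and 2.91 FPKM in promoter KO EBs, opposite in direction to Smad7, and did not pass (limma, log2 fold change -1.41, adjusted p = 0.0523). The phosphatase gene Ppm1a and the nicalin gene Ncln, also abundant in this list, had log2 fold changes of -0.08 and 0.17 and did not pass.

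**Figure D3:**
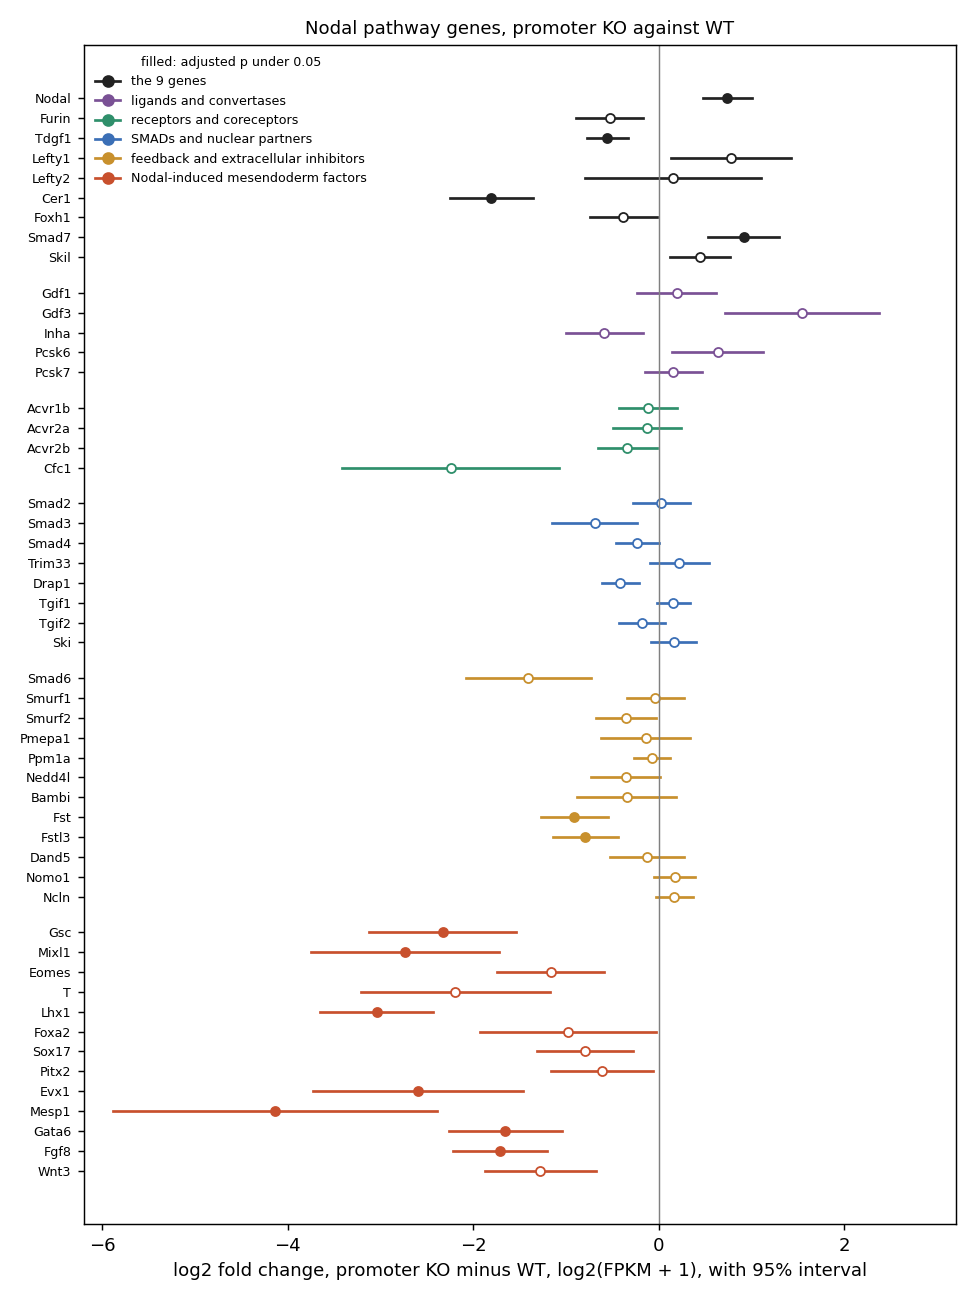
Log2 fold changes, promoter KO minus WT, on the log2(FPKM + 1) scale with 95% intervals for the 9 genes and 42 tested genes of 5 pathway lists, with filled circles for an adjusted p under 0.05. The 13 mesendoderm factors all lie below 0. Of the 9 genes, Nodal, Lefty1, Lefty2, Smad7 and Skil lie above 0, and Furin, Tdgf1, Cer1 and Foxh1 lie below 0.

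The factors that Nodal signalling induces in mesendoderm were lower where the ligand was higher. These factors were listed with earlier results of these data known. The study itself reports strong reductions of mesendoderm genes in promoter KO EBs, so the counts here are not independent support. All 13 were tested, and 7 were lower in promoter KO by limma, against 1.89% of all tested genes at the adjusted threshold. None was higher at an adjusted or an unadjusted p under 0.05, and the median log2 fold change was -1.71. The genotypes did not overlap for any of the 13, against 65.3% of all tested genes. The homeobox gene Lhx1 was at 45.5 and 59.9 FPKM in WT EBs, and at 4.07 and 7.21 FPKM in promoter KO EBs (limma, log2 fold change -3.04, adjusted p = 0.0208). Mesp1, a factor of nascent mesoderm, was at 27.0 and 101 FPKM in WT EBs, and at 0.759 and 4.24 FPKM in promoter KO EBs (limma, log2 fold change -4.14, adjusted p = 0.0467). The growth factor gene Fgf8 was at 196 and 213 FPKM in WT EBs, and at 48.9 and 77.7 FPKM in promoter KO EBs. Fgf8, Gsc, Mixl1, Evx1 and Gata6 had log2 fold changes of -1.71, -2.33, -2.74, -2.59 and -1.65, with limma adjusted p of 0.0310, 0.0372, 0.0389, 0.0472 and 0.0389. The abundant factors T and Eomes had log2 fold changes of -2.19 and -1.16 and narrowly missed the threshold (limma, adjusted p = 0.0509 and 0.0547). Within the promoter KO genotype, T was at 50.5 FPKM in replicate 1 and 127 FPKM in replicate 2, so the samples of that genotype differed from each other as well.

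Markers of several cell types moved with the genotype, and their part in the levels of the 9 genes was not tested. The lists were chosen with earlier results of these data known. The counts in each list stand beside 1.89% of all tested genes called lower by limma and 1.68% called higher. At an unadjusted p under 0.05 these shares were 15.6% and 15%. The 8 primitive streak and mesendoderm markers summed to 777 and 1002 FPKM in WT EBs, and to 148 and 314 FPKM in promoter KO EBs. Of these 8, all also in the list of mesendoderm factors, 5 were lower and 0 higher by limma. The most abundant of the 8 was T, followed by Eomes and Foxa2. Foxa2 was at 76.5 and 39.0 FPKM in WT EBs, and at 19.7 and 37.5 FPKM in promoter KO EBs. It did not pass (limma, log2 fold change -0.98, adjusted p = 0.154). No marker of any list was at 0 in all samples.

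Of 13 pluripotency markers, 11 had a log2 fold change above 0 and 2 below, with a median of 0.76 against 0.0042 for all tested genes. By limma 1 was higher and 0 lower, while an unadjusted p under 0.05 took 6 as higher and 1 as lower. The 13 markers added up to 2059 and 1827 FPKM in WT EBs, and to 2872 and 2522 FPKM in promoter KO EBs, and Pou5f1 was the most abundant. Utf1 was the single called gene of this list, at 262 and 297 FPKM in WT EBs, and at 828 and 617 FPKM in promoter KO EBs (limma, log2 fold change 1.35, adjusted p = 0.0275). Without Utf1 the list summed to 1797 and 1531 FPKM in WT EBs, and to 2044 and 1906 FPKM in promoter KO EBs. Without Pou5f1 the sums were 560 and 639 FPKM in WT EBs, and 1350 and 977 FPKM in promoter KO EBs, so they were higher in promoter KO either way. The 2 genes below 0 were Dppa3 and Nanog, named after their values were seen. Nanog was at 140 and 113 FPKM in WT EBs, and at 94.1 and 98.7 FPKM in promoter KO EBs, and did not pass (limma, log2 fold change -0.38, adjusted p = 0.0974). Pou5f1 and Sox2 had log2 fold changes of 0.20 and 0.76 and did not pass (limma, adjusted p = 0.296 and 0.0801). The 7 formative and primed epiblast markers summed to 830 and 631 FPKM in WT EBs, and to 801 and 833 FPKM in promoter KO EBs, with overlap. In that list Pou3f1 and Sox3 rose, with log2 fold changes of 1.04 and 0.70, and Zic2 fell, with -0.60 (limma, adjusted p = 0.0208, 0.0493 and 0.0389), while the abundant Dnmt3b and Fgf5 were not called.

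Extraembryonic endoderm, which also expresses Nodal antagonists in the embryo, was followed with 16 markers, of which 15 were tested. They summed to 63.2 and 92.1 FPKM in WT EBs, and to 124 and 168 FPKM in promoter KO EBs. By limma 7 were higher (Sox7, Dab2, Amn, Cubn, Ttr, Lama1 and Col4a1) and Gata6 was lower, with a median log2 fold change of 1.14. An unadjusted p under 0.05 took 10 as higher and 3 as lower, against 15% and 15.6% of all tested genes. The lower ones were Gata6, Sox17 and Pdgfra, the last named after its values were seen. Pdgfra was at 2.19 and 6.78 FPKM in WT EBs, and at 1.07 and 1.84 FPKM in promoter KO EBs. Sox7, Cubn and Apob, the last named after its values were seen, reached 1 FPKM in promoter KO alone, so they were tested only through the genotype in which they are high. Without these 3, 5 of 12 were higher and 1 lower, with a median of 1.05. Gata6 and Sox17 are also in the list of mesendoderm factors. The most abundant marker, the basement membrane collagen gene Col4a1, was at 9.37 and 11.4 FPKM in WT EBs, and at 33.4 and 46.3 FPKM in promoter KO EBs (limma, log2 fold change 1.83, adjusted p = 0.0233). Lama1 had a log2 fold change of 2.76 and Amn of 2.56 (limma, adjusted p = 0.0208 for each). Gata4 and Sox17, abundant in this list, had log2 fold changes of 0.18 and -0.79 and did not pass.

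Anterior visceral endoderm and anterior definitive endoderm were followed with 7 markers, since both tissues make Cer1 in the embryo. Of these 7, 4 were called lower, and whether this bears on the Cer1 level was not tested. The 7 markers summed to 142 and 154 FPKM in WT EBs, and to 86.3 and 85.9 FPKM in promoter KO EBs. Without Otx2, the most abundant, the sums were 70.4 and 91.9 FPKM in WT EBs, and 18.1 and 20.4 FPKM in promoter KO EBs. Without Lhx1 they were 96.4 and 93.9 FPKM in WT EBs, and 82.2 and 78.7 FPKM in promoter KO EBs. By limma the 4 lower ones were Hhex, Dkk1, Lhx1 and Cxcr4 and 0 were higher, at an unadjusted as at an adjusted p under 0.05. Of all tested genes, 1.89% were called lower and 15.6% were lower at an unadjusted p under 0.05. Hhex was at 7.93 and 8.56 FPKM in WT EBs, and at 4.17 and 4.89 FPKM in promoter KO EBs (limma, log2 fold change -0.74, adjusted p = 0.0493). Dkk1 and Cxcr4 had log2 fold changes of -1.10 and -1.94 (limma, adjusted p = 0.0371 and 0.0472). Otx2 was at 71.4 and 61.9 FPKM in WT EBs, and at 68.1 and 65.4 FPKM in promoter KO EBs, with overlap. Sfrp5 and Shisa2, named after their values were seen, had log2 fold changes of 0.03 and 0.12. Otx2 is also among the epiblast markers, and Lhx1 among the primitive streak markers.

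**Figure D4:**
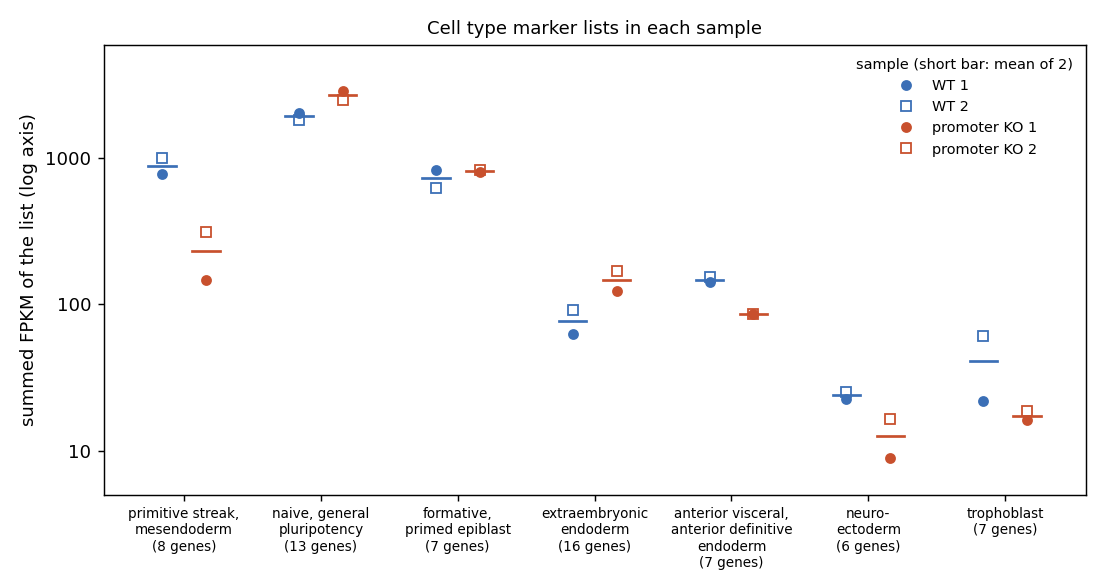
Summed FPKM on a log axis of 7 lists of cell type markers in each of the 4 samples, with WT in blue, promoter KO in orange, replicate 1 as filled circles, replicate 2 as open squares and short bars for the mean of 2 samples. The primitive streak list sums to 777 and 1002 FPKM in WT and to 148 and 314 FPKM in promoter KO, while the extraembryonic endoderm and pluripotency lists lie higher in promoter KO.

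Genes with the most similar pattern were found by the Euclidean distance between log2(FPKM + 1) profiles over the 4 samples, each centred on its own mean. The 5 nearest to Nodal were Gm5176, Jph4, Zfp345, Jakmip2 and Zfp638, at distances of 0.0457 to 0.0817. Gm5176, the nearest, was at 0.373 and 0.137 FPKM in WT EBs, and at 1.15 and 1.12 FPKM in promoter KO EBs, a level at which the added 1 shrinks differences, so its profile is near that of Nodal on this scale and not in fold. Gm5176 reached 1 FPKM in promoter KO alone, so it was tested only through the genotype in which it is high. Jph4 was the single called gene among them, at 11.7 and 10.1 FPKM in WT EBs, and at 18.8 and 17.4 FPKM in promoter KO EBs (limma, log2 fold change 0.69, adjusted p = 0.0472). The 5 nearest to Cer1 were Ankrd37, Adm, Slc30a3, Cox20 and Miip, at distances of 0.320 to 0.486, and limma called all 5 lower. They were chosen for a profile like that of a called gene, so these calls are not a separate result. Ankrd37 was at 15.3 and 14.7 FPKM in WT EBs, and at 3.56 and 4.40 FPKM in promoter KO EBs. None of the 10 genes belongs to the pathway lists, and over 4 samples many genes can share a profile.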

How the data were processed

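RNA-seq was carried out on day 3 EBs, with 2 WT and 2 promoter KO samples. The authors deposited FPKM values per gene. The submitters' processing notes name HISAT2 2.1.0, Cufflinks, Cuffnorm and mm10, while the study's methods name TopHat, Cufflinks and Cuffdiff, so the aligner of these values is uncertain. Cuffnorm scales samples to each other, which assumes similar totals of RNA. A gene was tested where 2 or more samples reached 1 FPKM, with limma 3.58.1 (R 4.3.3, trend) on log2(FPKM + 1), which understates changes of low genes, with Benjamini-Hochberg adjustment over 11941 genes. The limma fit and the depth estimate were checked on simulated data. Ratios to Nodal were compared with exact permutation tests. Coordinates and transcripts came from GENCODE M21, and near-identical stretches (at least 95% over 200 bases) from BLAST 2.17.0. Depth was estimated by assuming fragments of 200 bases.

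The members and lists were chosen with earlier results of these data known. Named genes were the 9 members, Gm11549, the tested receptors, coreceptors, SMADs and nuclear partners, in each other list the called genes and the 3 most abundant, and the 5 genes nearest in profile to Nodal and to Cer1. Alternatives changed the pseudocount, filter, trend, scaling, call rule, replicate block and samples.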

Additional observations from a re-analysis of the deposited data

How the results depend on the processing

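The direction of the log2 fold change was kept in 12 of 12 alternatives for each of the 9 genes except Lefty2, which gave -0.38 without WT 1 and -0.21 without promoter KO 1 (limma, adjusted p = 0.469 and 0.827, in a range of 0.356 to 0.854) and reached 0.70 without WT 2. The calls were less stable than the directions. With no filter beyond a value above 0, limma called 0 genes lower and 0 higher among 18215, and 0 members and 0 other pathway genes, against 1982 lower and 2077 higher at an unadjusted p under 0.05. A mean of at least 5 FPKM gave 108 lower and 95 higher with 1 member higher, limma without trend gave 27 lower and 55 higher with 1 member lower, 0 higher and 1 other pathway gene lower, and median centring gave 126 lower and 157 higher with 1 member higher. Where calls were made, the share of higher ones ran from 34.4% without WT 1 (84 lower and 44 higher) to 67.1% without trend, against 47.1%. The fold rule gave 1 member lower and 0 higher, and 12 other pathway genes lower and 1 higher.

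Leaving out each sample in turn gave 0 to 342 genes lower and 0 to 296 higher, 0 to 2 members lower and 0 to 2 higher, and 0 to 13 other pathway genes lower and 0 to 1 higher, where the lone sample of a genotype was assumed to vary like the others. The counts of 0 came without WT 2, with 921 lower and 900 higher genes of 11713 at an unadjusted p under 0.05 by limma, and without promoter KO 1, with 1056 and 886 of 11704. Over the 4 sets that leave out 1 sample, the log2 difference of the ratio to Nodal ran from -0.52 to 0.60 for Lefty1 and from -1.26 to 0.10 for Lefty2. The cause was not tested. With the replicate number as a block, 667 genes were lower and 535 higher, 17 other pathway genes lower and 1 higher, and members kept their calls. Deviations of same-numbered samples had a correlation of 0.03 across genes, so the numbers were not taken to pair samples. At about 20200000 to 24800000 fragments, the lowest value of the 9 genes, Cer1 in promoter KO 1, had a 95% counting interval of 6.53 to 8.42 FPKM, and values of low genes such as Gm11549 are limited by counting error.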

Other observations

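Of 6 neuroectoderm markers, 1 was tested, Nes, at 21.6 and 24.5 FPKM in WT EBs, and at 6.94 and 14.7 FPKM in promoter KO EBs (limma, log2 fold change -1.10, adjusted p = 0.0831). The other 5 summed to 0.908 and 0.728 FPKM in WT EBs, and to 1.91 and 1.73 FPKM in promoter KO EBs. By the mean of the 4 samples the most abundant of them were Zic1, which reached 0.814 FPKM, and Pax6, which reached 0.565 FPKM, both in promoter KO 1. Six3, named after its values were seen, was the most abundant of the 5 in WT and went the other way, at 0.404 and 0.312 FPKM in WT EBs, and at 0.118 and 0.184 FPKM in promoter KO EBs.

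The 7 trophoblast markers summed to 21.8 and 60.5 FPKM in WT EBs, and to 16.2 and 18.6 FPKM in promoter KO EBs, so the WT samples lay further apart than the promoter KO samples. By limma 0 of 5 tested were higher and Tfap2c was lower, at 9.60 and 16.2 FPKM in WT EBs, and at 3.87 and 3.83 FPKM in promoter KO EBs (log2 fold change -1.48, adjusted p = 0.0422). At an unadjusted p under 0.05 limma also took Ascl2 as higher. Hand1, named after its values were seen, reached 1 FPKM in WT alone, so it was tested only through the genotype in which it is high. It was not called. Cdx2, also a posterior streak gene, was at 5.77 and 25.4 FPKM in WT EBs, and at 2.49 and 5.51 FPKM in promoter KO EBs, and was not called.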
